A study of Mus musculus with 10 samples.

Results

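The genes described here encode receptors of the stress hormones and enzymes that handle them: Nr3c1, Nr3c2, Hsd11b1, Adrb1, Adra2a and Maoa. They were chosen by symbol, by matching the Ensembl identifiers of the count table to the mouse GENCODE annotation. All 6 were found among 48526 genes. The libraries came from cells labelled aortic endothelial cells, sorted by fluorescence-activated cell sorting from mice of the strain labelled ApoE, a label that says no more of the genotype. In the stressed group (5 libraries) the animals had met acute mental stress for 3 h on each of 3 consecutive days before the aortae were taken; the non-stressed group (5 libraries) had the same strain and cell label and no stress. Neither the age and sex of the animals nor whether a library came from 1 animal or a pool is given in the sources used here, so p-values measure only the spread between these libraries.

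Mental stress acts on tissues through the adrenal steroid corticosterone and through the catecholamines adrenaline and noradrenaline. Corticosterone binds the glucocorticoid receptor (Nr3c1) and, with higher affinity, the mineralocorticoid receptor (Nr3c2), which move to the nucleus and bind DNA. The enzyme encoded by Hsd11b1 regenerates corticosterone from its inactive keto form inside cells. Catecholamines bind adrenergic receptors at the cell surface: Adrb1 encodes a receptor that raises cyclic AMP and Adra2a one that lowers it. Maoa encodes monoamine oxidase A, an enzyme of the outer mitochondrial membrane that breaks down noradrenaline and serotonin.

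RefSeq promoter windows (GRCm38.p6) of 5 of the 6 genes were examined, and Nr3c1 was left out of this step. Those of the 3 that could be tested between the groups are shown by their 250 bases before the start site, 5′ to 3′ on the gene's strand, to show what DNA elements of the hormone pathways they hold. Capitals mark TGACG, the core of the cyclic AMP response element.
Hsd11b1, chr1:193242361-193242610, minus strand: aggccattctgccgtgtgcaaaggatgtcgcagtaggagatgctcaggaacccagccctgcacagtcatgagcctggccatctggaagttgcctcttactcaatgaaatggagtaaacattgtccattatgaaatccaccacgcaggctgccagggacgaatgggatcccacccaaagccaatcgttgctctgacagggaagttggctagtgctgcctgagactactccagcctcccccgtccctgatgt
Adrb1, chr19:56721867-56722116, plus strand: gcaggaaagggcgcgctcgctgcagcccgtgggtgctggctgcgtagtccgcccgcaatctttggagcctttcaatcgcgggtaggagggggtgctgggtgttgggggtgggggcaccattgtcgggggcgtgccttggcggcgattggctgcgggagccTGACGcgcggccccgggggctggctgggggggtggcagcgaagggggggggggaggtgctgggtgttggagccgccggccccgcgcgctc
Maoa, chrX:16619448-16619697, plus strand: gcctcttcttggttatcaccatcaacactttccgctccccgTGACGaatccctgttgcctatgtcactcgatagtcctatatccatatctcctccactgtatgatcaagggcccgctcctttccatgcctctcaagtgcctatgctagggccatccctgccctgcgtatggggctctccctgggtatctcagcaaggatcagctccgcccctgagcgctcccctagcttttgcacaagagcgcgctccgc
Each whole window (the 250 bases shown and 50 after the start) was searched on both strands. The glucocorticoid response element (AGAACA, any 3 bases, TGTTCT) was in 0 of the 5 windows and in 0.00913% of all 32851 windows. Its single arm AGAACA was in 0 of the 5 and in 19.0% of all windows. The full cyclic AMP element TGACGTCA was in 0 of the 5 and in 1.79% of all. TGACG, which TGACGTCA contains, was in the windows of Adra2a, Adrb1 and Maoa (3 of 5), from base -69, -90 and -209, and in 20.8% of all windows. These are matches of letters only. The Hsd11b1 window lies inside the gene as GENCODE annotates it (193221634 to 193264075, minus strand), not at its outermost start. The windows of Nr3c2 and Adra2a also lie inside their annotated genes. Other start sites of these genes were not searched.

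In mm10 coordinates (GENCODE annotation of GRCm38), Nr3c1 (ENSMUSG00000024431) lies on chromosome 18 from 39410545 to 39519421, minus strand. Nr3c2 (ENSMUSG00000031618) lies on chromosome 8 from 76899442 to 77245012, plus strand. Hsd11b1 (ENSMUSG00000016194) lies on chromosome 1 from 193221634 to 193264075, minus strand. Adrb1 (ENSMUSG00000035283) and Adra2a (ENSMUSG00000033717) lie on the plus strand of chromosome 19, from 56722199 to 56733113 and from 54044151 to 54048982. Maoa (ENSMUSG00000025037) lies on the X chromosome from 16619698 to 16687818, plus strand. All are protein-coding. Of these genes, Nr3c2 alone shares annotated exon bases with another gene: with Gm10649, on the opposite strand, which had 0 reads.

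The libraries held 18020220 to 30168890 reads counted in genes in the stressed group and 24373063 to 38237346 in the non-stressed group. At 3 reads, the level that a count of 0 still allows was 0.0994 to 0.167 CPM (reads of a gene per 1000000 counted reads) in stressed and 0.0785 to 0.123 CPM in non-stressed libraries. These limits cover counting error only. The labelled cell type was checked against lists of marker genes. Of 14 endothelial markers, Tek, Emcn, Cldn5 and Ptprb had no read in any library, and the list summed to 34.5 to 85.1 CPM in stressed and 39.6 to 91.2 CPM in non-stressed libraries. Of 10 monocyte and macrophage markers none was at 0, and that list summed to 27029 to 34285 CPM in stressed and 22305 to 34295 CPM in non-stressed libraries. The values below are therefore those of libraries labelled endothelial that carried myeloid transcripts at high levels. In such bulk samples, fewer cells of a type and less RNA per cell cannot be told apart.

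Of the 6 genes, Nr3c1, Hsd11b1 and Adrb1 were detected (3 reads or more) in 10 of 10 libraries, Maoa in 8, Nr3c2 in 5 and Adra2a in 3. Per length of merged exon, Nr3c1 stood at 22.6 ± 2.76 RPKM (CPM per kilobase of exon; SD, n = 10), Hsd11b1 at 2.90 ± 1.30, Adrb1 at 0.485 ± 0.412, Maoa at 0.293 ± 0.283, Nr3c2 at 0.0459 ± 0.0542 and Adra2a at 0.0231 ± 0.0418 RPKM (SD, n = 10 each). Nr3c1 lay above Hsd11b1 in every library with no overlap of their ranges. From Hsd11b1 down, the range of each gene overlapped that of the next. A merged exon length assumes that all annotated exons are used, so these levels are approximate.

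**Figure D1:**
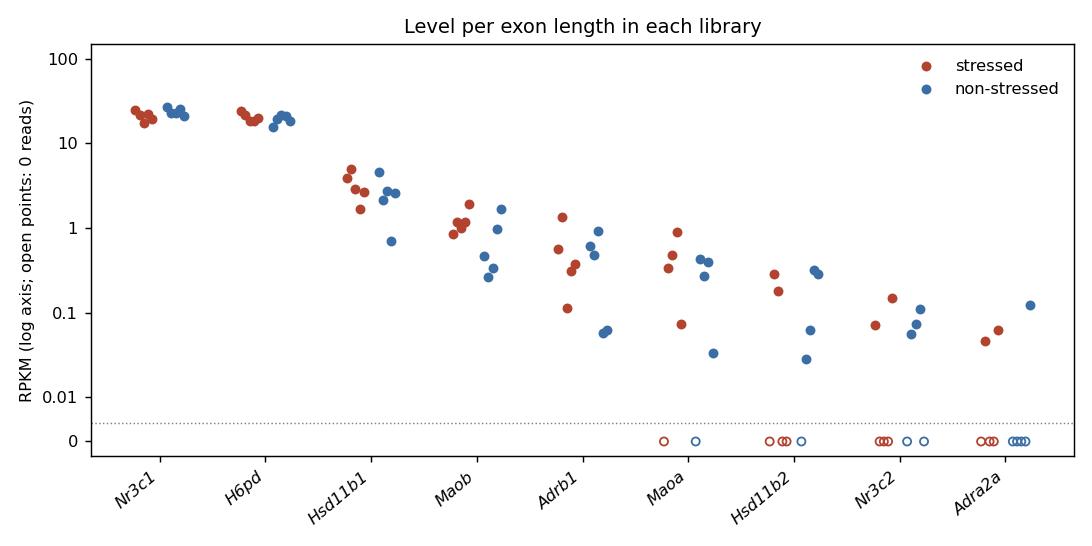
Level per merged exon length (RPKM, log axis) of the 6 genes and of H6pd, Maob and Hsd11b2, 1 point per library, stressed left of non-stressed for each gene. Open points under the dotted line are libraries with 0 reads. Nr3c1 and H6pd lie above 10 RPKM in all 10 libraries, and Nr3c2 and Adra2a have 0 reads in 5 and 7 libraries.

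None of the 6 genes passed the test between stressed and non-stressed libraries. In the edgeR test over 13334 genes, 4 of the 6 passed the filter on low counts (Nr3c1, Hsd11b1, Adrb1 and Maoa) and 0 of these 4 passed an adjusted p of 0.05, where 0.0075% of all genes tested did (1 gene, Chil3). At an unadjusted p under 0.05 there were also 0 of 4, against 5.53% of all genes. The groups overlapped for each of the 4, where 1.11% of all genes had groups that did not overlap. With DESeq2 0 of 5 tested passed, against 0.129% of all genes.

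The glucocorticoid receptor gene Nr3c1 had 192, 169, 134, 171 and 150 CPM in stressed replicates 1 to 5, against 205, 176, 178, 195 and 164 CPM in non-stressed replicates 1 to 5. Stressed replicates 3 and 5 lay below every non-stressed library and the other 3 lay among them. The means were 163 ± 22.0 CPM in stressed and 184 ± 16.4 CPM in non-stressed libraries (SD, n = 5 each). The log2 fold change was -0.16 (SE 0.095, 95% interval -0.37 to 0.04, edgeR adjusted p = 0.940). Of the 4 genes tested this interval was the narrowest.

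The mineralocorticoid receptor gene Nr3c2 was near the limit of detection. It had 0.462 and 0.953 CPM in stressed replicates 1 and 5 and 0 reads in stressed replicates 2, 3 and 4, against 0.366, 0.482 and 0.707 CPM in non-stressed replicates 2, 3 and 4 and 0 reads in non-stressed replicates 1 and 5. Its 84 reads were spread over 2 stressed and 3 non-stressed libraries, so neither group held it throughout. The means were 0.283 ± 0.425 CPM in stressed and 0.311 ± 0.309 CPM in non-stressed libraries (SD, n = 5 each; exact permutation test, two-sided, p = 0.921, adjusted p = 1 over 2 genes, smallest possible p = 0.00794). Per length, the ratio of Nr3c1 to Nr3c2 was 133 to 405 in the 5 libraries with reads of Nr3c2. Stressed replicate 4 had 0 reads of Nr3c2 with 30168890 counted reads and stressed replicate 5 had 25 with 26222383. The deepest libraries, non-stressed replicates 2 and 3 (38237346 and 35270491 counted reads), had 14 and 17. The part of depth was not tested.

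**Figure D2:**
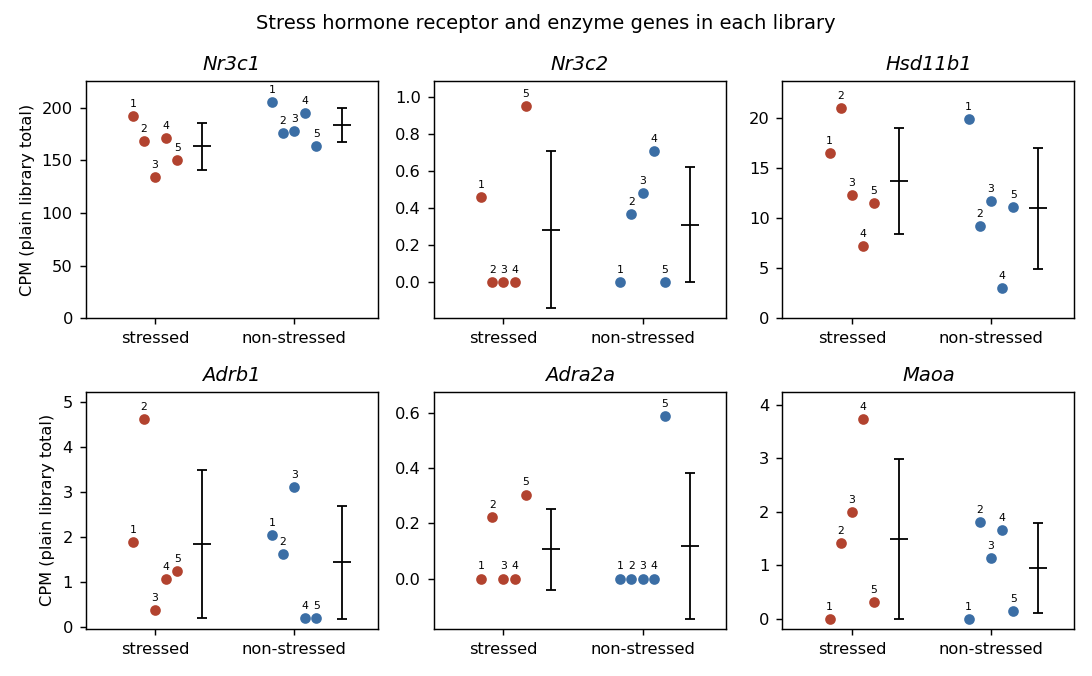
Level of the 6 genes (CPM, linear axes) in each library, stressed left of non-stressed. Points are libraries with their replicate numbers and the bars are the mean ± SD (n = 5). The groups overlap for every gene; Nr3c1 lies between 134 and 205 CPM and Adra2a reaches at most 0.591 CPM.

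Hsd11b1 had 16.5, 20.99, 12.3, 7.16 and 11.5 CPM in stressed replicates 1 to 5, against 19.8, 9.23, 11.7, 3.03 and 11.1 CPM in non-stressed replicates 1 to 5. Stressed replicate 2 lay above every non-stressed library, and the lowest library was non-stressed replicate 4, with 77 reads. The means were 13.7 ± 5.26 CPM in stressed and 10.96 ± 6.02 CPM in non-stressed libraries (SD, n = 5 each). The log2 fold change was 0.33 (SE 0.38, 95% interval -0.48 to 1.13, edgeR adjusted p = 0.964), and without non-stressed replicate 4 it was 0.09. H6pd, whose enzyme supplies the cofactor that lets the Hsd11b1 product work as a reductase, was present in every library, at 96.7 to 128 CPM in stressed and 81.9 to 113 CPM in non-stressed libraries. Its log2 fold change was 0.10 (SE 0.11, adjusted p = 0.961). Hsd11b2, whose enzyme inactivates corticosterone, had 54 reads in all, in 2 stressed and 4 non-stressed libraries. Per length Hsd11b1 lay above Hsd11b2 in 10 of 10 libraries, by 2.22-fold to 76.4-fold in the 6 libraries with reads of Hsd11b2 and by 24.9-fold between the mean RPKM values.

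The adrenergic receptor gene Adrb1 had 1.89, 4.62, 0.388, 1.06 and 1.26 CPM in stressed replicates 1 to 5, against 2.05, 1.62, 3.12, 0.196 and 0.209 CPM in non-stressed replicates 1 to 5. The spread within each group exceeded the difference between them, with 5 and 6 reads in non-stressed replicates 4 and 5 and 104 in stressed replicate 2. The means were 1.84 ± 1.64 CPM in stressed and 1.44 ± 1.25 CPM in non-stressed libraries (SD, n = 5 each). The log2 fold change was 0.36 (SE 0.83, 95% interval -1.41 to 2.12, edgeR adjusted p = 0.989). It was -0.32 without stressed replicate 2, so its direction rested on that library.

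Adra2a had 0.222 and 0.305 CPM in stressed replicates 2 and 5 (5 and 8 reads) and 0 reads in the other 3 stressed libraries, against 0.591 CPM (17 reads) in non-stressed replicate 5 and 0 reads in the other 4 non-stressed libraries. The means were 0.105 ± 0.147 CPM in stressed and 0.118 ± 0.264 CPM in non-stressed libraries (SD, n = 5 each; exact permutation test, two-sided, p = 1, adjusted p = 1 over 2 genes). The deepest library, non-stressed replicate 2, was among those with 0 reads.

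Among other adrenergic receptor genes, Adra1b and Adra2b had 0 reads in every library. Adra1a, Adra1d, Adra2c and Adrb3 had 3 to 11 reads, each in 1 library.

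Maoa had 0, 1.42, 1.998, 3.75 and 0.305 CPM in stressed replicates 1 to 5, against 0, 1.80, 1.13, 1.65 and 0.139 CPM in non-stressed replicates 1 to 5. Replicates 1 and 5 were the lowest in each group. The means were 1.49 ± 1.496 CPM in stressed and 0.946 ± 0.839 CPM in non-stressed libraries (SD, n = 5 each). The log2 fold change was 0.65 (SE 1.18, 95% interval -1.86 to 3.17, edgeR adjusted p = 0.985), and -0.04 without stressed replicate 4.

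The low libraries of this X-linked gene were those with Xist, the transcript of the inactive X chromosome. In the 4 libraries with Xist (426.6 to 660.1 CPM; 2 stressed, 2 non-stressed) Maoa had 0 to 0.305 CPM and 12 reads in all. In the 6 libraries with 0 reads of Xist and more than 100 reads of Ddx3y, a Y-linked gene (3 stressed, 3 non-stressed), Maoa had 1.13 to 3.75 CPM and 332 reads, and the ranges did not overlap. Maob, which lies beside Maoa on the X chromosome and encodes the other monoamine oxidase, had 1.31 to 5.42 CPM in the libraries with Xist and 0.732 to 3.31 CPM in the others, with overlapping ranges. This pattern of Maoa was noticed after its values were seen, and no test was made of it. With Ddx3y as a covariate the log2 fold change of Maoa between the groups was 0.79 (SE 0.89, edgeR adjusted p = 0.959).

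**Figure D3:**
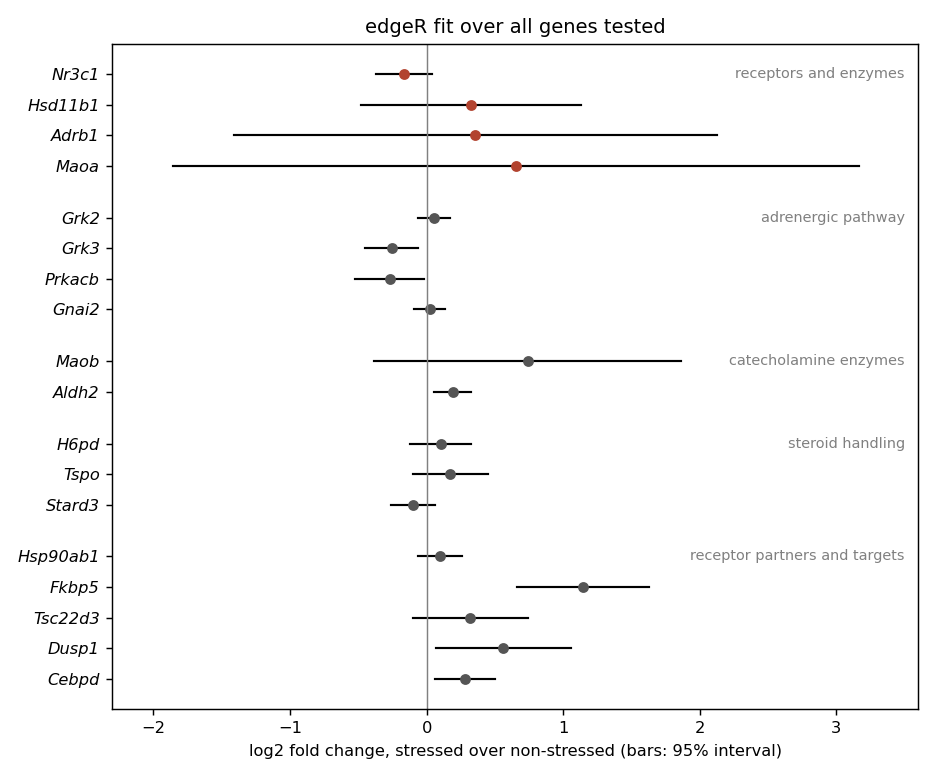
Log2 fold change of stressed over non-stressed libraries with its 95% interval (edgeR, n = 5 each) for the 4 genes that passed the filter on low counts (red) and for genes of the same pathways (grey). The intervals of Nr3c1, Hsd11b1, Adrb1 and Maoa all include 0, and that of Maoa is the widest of the 4, from -1.86 to 3.17.

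Genes that make, carry and break down the hormones were partly at 0. Of 22 genes of corticosteroid metabolism and transport, 8 had no read in any library, among them Cyp11b1, Hsd3b1 and Serpina6, which serve synthesis in the adrenal cortex and transport in plasma. Of the 13 tested, 0 passed the threshold, 5 had a positive and 8 a negative log2 fold change, and the median was -0.06, against 0.004 over all genes tested. Tspo, a mitochondrial outer membrane protein that binds cholesterol, had 0.17 (SE 0.13) and Stard3, a cholesterol-binding protein of endosomes, -0.10 (SE 0.08). Cyp11a1, which starts steroid synthesis from cholesterol, had -3.42 (SE 1.40, adjusted p = 0.874) at 0 to 0.464 CPM in stressed and 0 to 2.51 CPM in non-stressed libraries, and was at 0 in 3 stressed and 1 non-stressed libraries. Without stressed replicate 4, which held 14 of its 15 reads in the stressed group, the value was -6.24.

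Of 19 genes of catecholamine synthesis, uptake and breakdown, 6 had no read, among them Th and Dbh, which serve noradrenaline synthesis. Of the 8 tested, 0 passed the threshold, 8 had a positive log2 fold change and the median was 0.26. Over all genes tested 6784 of 13334 were positive, with a median of 0.004. Aldh2, an aldehyde dehydrogenase of mitochondria that oxidises the aldehydes monoamine oxidases form, had 0.19 (SE 0.06, adjusted p = 0.829) and its groups did not overlap: it ranged over 753 to 825 CPM in stressed and 626 to 741 CPM in non-stressed libraries. Such separation, in either direction, was found for the 1.11% of genes given above. Maob had 0.74 (SE 0.53) and Aldh3a2 0.002 (SE 0.11). The direction of Aldh3a2 reversed in 9 of 27 alternatives.

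Downstream of the adrenergic receptors, 30 of 31 genes were tested, 0 passed, 11 were positive and 19 negative, with a median of -0.06. Grk3, a kinase that desensitises activated receptors, had -0.26 (SE 0.09, adjusted p = 0.836), and Prkacb, a catalytic subunit of protein kinase A, had -0.27 (SE 0.12, adjusted p = 0.877). For each, 4 of 5 stressed libraries lay below all non-stressed ones. Gnai2, the abundant inhibitory G protein subunit, had 0.02 (SE 0.05), the receptor kinase gene Grk2 0.06 (SE 0.05) and the anchoring protein gene Akap13 -0.01 (SE 0.07).

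Among partners of the steroid receptors, all 12 chaperone genes were tested, 0 passed, 8 were positive and 4 negative, with a median of 0.08. Hspa8 had 0.12 (SE 0.12), Hsp90ab1 0.10 (SE 0.08) and Hspa4 -0.18 (SE 0.08), all chaperones. Of 16 coregulator genes, all tested, 0 passed, 3 were positive and 13 negative, with a median of -0.04. The corepressor gene Ncor1 had -0.04 (SE 0.07), the acetyltransferase gene Ep300 -0.09 (SE 0.07), and the coactivator genes Med1 and Ncoa2 -0.19 (SE 0.10) and -0.14 (SE 0.07). Of 15 tested target genes of the glucocorticoid receptor, 0 passed, 14 were positive and 1 negative, with a median of 0.26; over all genes tested 6784 of 13334 were positive. At an unadjusted p under 0.05 there were 5 of the 15, against the 5.53% of all genes given above. Fkbp5, a target that also encodes a chaperone of the receptor, stood at 25.2 to 58.4 CPM in stressed and 10.6 to 24.5 CPM in non-stressed libraries, with a log2 fold change of 1.14 (SE 0.23, edgeR adjusted p = 0.349). It passed with DESeq2 (adjusted p = 0.00348). The most abundant targets, Zfp36 and Tsc22d3 (a leucine zipper protein that glucocorticoids induce), had 0.26 (SE 0.18) and 0.32 (SE 0.20). Without stressed replicate 3 Zfp36 had 0.06, and without non-stressed replicate 4 it had 0.41. Without stressed replicate 2 Tsc22d3 had 0.18, and without non-stressed replicate 1 it had 0.51. Dusp1, a phosphatase of MAP kinases, had 0.56 (SE 0.23, adjusted p = 0.874), and the transcription factor gene Cebpd 0.28 (SE 0.10, adjusted p = 0.874). Fkbp5 is also 1 of the 12 chaperone genes.

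Adrb1 was higher in the 5 libraries with most T and NK cell transcripts than in the other 5. In stressed replicates 1 and 2 and non-stressed replicates 1, 2 and 3, the 12 T and NK cell markers summed to 79.6 to 160 CPM and Adrb1 had 1.62 to 4.62 CPM. In the other 5 libraries those markers summed to 26.3 to 32.1 CPM and Adrb1 had 0.196 to 1.26 CPM, so neither range overlapped the other. By summed CPM, the same 5 libraries held more of the endothelial list (80.2 to 91.2 CPM, against 34.5 to 59.6). They also held more of the neutrophil list (1246 to 2411 CPM, against 796 to 1086). The dendritic cell list was higher there too (244 to 365 CPM, against 138 to 191). So was the adipocyte list (18.1 to 27.7 CPM, against 2.24 to 6.98). Pecam1 and Vwf made up most of the endothelial sum, while Cdh5 and Nos3 stayed under 1 CPM in every library. Csf3r had the highest mean of the neutrophil markers. On the mean of log2(CPM + 1) the endothelial list overlapped (0.941 to 1.12, against 0.803 to 0.942). The neutrophil list did too (4.44 to 6.02, against 3.44 to 4.82). The dendritic cell and adipocyte lists did not. By summed CPM those 5 libraries held less of the monocyte and macrophage list (22305 to 27801 CPM, against 30632 to 34295), with no overlap. Most of that sum was Lyz2 (15692 to 20809 CPM in those 5, against 23375 to 26749). Csf1r, of the same list, went the other way (2544 to 2766 CPM, against 2323 to 2423). On the mean of log2(CPM + 1) the list overlapped (9.41 to 9.63, against 9.62 to 9.71). Only these 2 of its 10 markers were looked at by library. The B cell list (577 to 996 CPM, against 359 to 654), the erythroid list and the platelet list overlapped. Most of the adipocyte sum was Fabp4, while Adipoq and Plin1 had 21 and 4 reads in all. Hsd11b1 had 9.23 to 20.99 CPM in those 5 libraries and 3.03 to 12.3 CPM in the others, with some overlap. This pattern was noticed after the values were seen and has no test; the part of these other transcripts in the level of Adrb1 was not tested. With the T and NK cell level as a covariate, added after the data were seen, the log2 fold change of Adrb1 between the groups was 0.97 (SE 0.75, adjusted p = 0.870), and with the endothelial sum 1.18 (SE 0.75, adjusted p = 0.827). With the neutrophil level it was -0.25 (SE 0.73, adjusted p = 0.953).

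**Figure D4:**
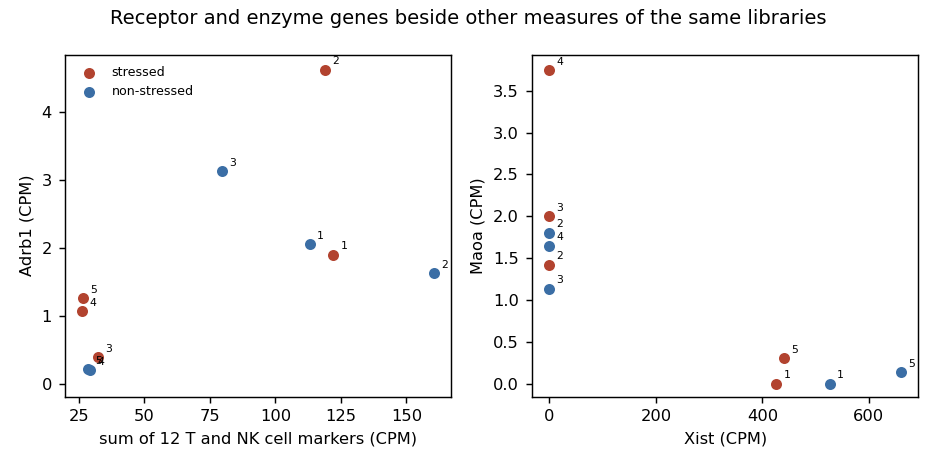
Left, Adrb1 (CPM) against the summed CPM of 12 T and NK cell markers; right, Maoa against Xist (CPM). Each point is 1 library with its replicate number, stressed red and non-stressed blue. Libraries with marker sums above 79 CPM have Adrb1 at 1.62 CPM or more, and libraries with Xist have Maoa at 0.305 CPM or less.

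The genes most like each of the 4 were taken as those with the highest Pearson correlation of log2(CPM + 1) over the 10 libraries after subtracting group means. Each gene was compared with every other gene tested, and the values are a description. For Nr3c1 they were Zeb1 (r = 0.983, rho = 0.988), Dgkd (r = 0.953, rho = 0.915) and Fmr1 (r = 0.914, rho = 0.939). For Hsd11b1 they were Mknk2 (r = 0.956, rho = 0.879), Klhl2 (r = 0.955, rho = 0.915) and Napsa (r = 0.952, rho = 0.806). For Adrb1 they were Rbbp4 (r = 0.961, rho = 0.903), Zhx2 (r = 0.953, rho = 0.976) and Fabp4 (r = 0.945, rho = 0.952). For Maoa they were Samd1 (r = 0.964, rho = 0.952), 1500015A07Rik (r = 0.953, rho = 0.842) and A930006K02Rik (r = 0.952, rho = 0.881). Like Maoa itself, 1500015A07Rik (1.89 to 4.4 CPM) and A930006K02Rik (0 to 1.11 CPM) were low, so their values rest on few reads. Without the 2 libraries farthest from the median of the gene, the 12 values of r were 0.863 to 0.982.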

How the data were processed

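RNA-seq read counts of 10 libraries were used, 5 stressed and 5 non-stressed, grouped and numbered by the sample titles. The labels' protocols name PicoPure for RNA isolation and TruSeq Stranded for library construction. The deposited table holds raw counts per Ensembl gene, not normalized. The tools named in the submitters' processing notes are Trimmomatic, STAR and featureCounts, and the build is mm10. Versions, gene annotation and strandedness of counting were not given in the sources used here; overlapping and antisense genes are uncertain. Symbols and exon lengths came from GENCODE release M21 (48058 of 48526 identifiers matched). The genes and the lists were chosen with earlier results of these data known.

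The test was edgeR 4.0.16 under R 4.3.3 (filterByExpr with a minimum count of 10, TMM factors, intercept and group, quasi-likelihood F test, Benjamini-Hochberg adjustment over 13334 genes, threshold 0.05), after a check on simulated counts. The standard error is the log2 fold change divided by the square root of F. Values per library and group means are CPM of the plain total. Nr3c2 and Adra2a, removed by the filter, were compared by an exact permutation test (252 assignments, scipy 1.17.1). Named were the 6 genes, up to 3 most abundant and up to 2 of smallest p of each list, and the 3 genes most like each of the 6 that was tested. A few genes of the lists are not reported here. Genes at 0 or near 0, Maob and the markers were named after their values were seen. Alternatives were DESeq2 1.42.0, limma-voom (limma 3.58.1), other factors and filters, covariates, 1 surrogate variable (sva 3.50.0), the replicate number as a block and leaving out each library.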

Additional observations from a re-analysis of the deposited data

Results flagged for a closer look

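The highest or lowest library of a group of 5 stood far from the other 4 in 5 of 58 groups examined; chance flags about 1 in 20. Adra2a had 0.591 CPM in non-stressed replicate 5 and 0 in the other non-stressed libraries. Cyp11a1 had 0.464 CPM in stressed replicate 4, with the next at 0.0462 CPM. Zfp36, which encodes an mRNA decay factor, had 1232 CPM in stressed replicate 3, with the next at 776 CPM. Aldh3a2 had 110.1 CPM in stressed replicate 2, with the next at 93.1 CPM. Prkacb had 101.5 CPM in non-stressed replicate 2, with the next at 90.4 CPM.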

How the results depend on the processing

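In each of the 27 alternatives to the edgeR fit, 0 of the 4 to 6 genes tested passed the threshold; Nr3c2 and Adra2a did not pass in any of the 11 alternatives to their own test. Nr3c1 kept its direction in all 27 (log2 fold change -0.23 to -0.10), as did Hsd11b1 (0.07 to 0.64). Adrb1 was -0.25 with the neutrophil level as a covariate, and -0.32 to 0.85 with a library left out (-0.32 without stressed replicate 2). Maoa was -0.0352 to 1.02 with a library left out (-0.0352 without stressed replicate 4). The CPM difference of Nr3c2, -0.028 with all libraries, was -0.196 to 0.0710 with a library left out, and that of Adra2a, -0.0129, was -0.0628 to 0.105; on the log2(CPM + 1) scale that of Adra2a was 0.000609. Levels per length moved by less than 1 SD with TMM-scaled sizes. Aldh3a2 was -0.00178 with upper-quartile factors, -0.00189 without a filter, -0.000721 with a filter of 1 CPM in 5 libraries, -0.0579 with the neutrophil and -0.0363 with the erythroid covariate, and -0.0642 to 0.0893 with a library left out. Akap13 was 0.0120 with the erythroid covariate and -0.0531 to 0.0258 with a library left out.

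Over all genes, 1 passed in the edgeR fit reported; 10 passed without a filter, 4 with the replicate block, 15 with the neutrophil, 4 with the B cell, 5 with the T and NK cell and 6 with the endothelial covariate, 4 with 1 surrogate variable, 19 with DESeq2 and 2 with limma-voom, and 1 to 2 with a library left out. The cause was not tested. Fkbp5 passed in 6 of these fits. Same-numbered libraries of the 2 groups had correlated deviations over 8273 genes (0.231 to 0.403) except for replicate 3 (-0.083), and 3 of 5 stressed libraries correlated best with their own number. Xist was present in replicates 1 and 5 of both groups and at 0 in the other replicates of both. As replicate 3 did not pair and no label states a pairing, the numbers were not taken to pair libraries. With the replicate block Nr3c1 was -0.17 (adjusted p = 0.683), Hsd11b1 0.45, Adrb1 0.83 and Maoa 0.67, with 0 calls among them; Fkbp5 passed (adjusted p = 0.0279). Nr3c2 and Adra2a had reads in 5 and 3 of 10 libraries, with 0 in some of the deeper ones; the part of depth was not tested.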
